A study of Homo sapiens with 2 samples.

Results

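Some parts of the autosomes carried no ETV6 peak for 400 kb or more, and the peaks within 500 kb of those stretches are described here. ETV6 is an ETS-family transcription factor that mostly represses its targets. Its DNA contacts were mapped by chromatin immunoprecipitation sequencing in Reh, an established human pre-B acute lymphoblastic leukaemia line with the t(12;21) rearrangement, which fuses ETV6 to RUNX1. The tested arm had received the pCCL ETV6-HA vector, in which ETV6 carries an HA tag, and the control arm the pCCL ETV6 vector without the tag. Both arms are pools of the same cell line, both got 200 ng of virus with polybrene at 8 µg/mL and fresh medium after 24 h, both grew for 2 weeks, and both went through anti-HA beads. The fusion and any other ETV6 allele of the line itself remain in both arms. Peaks were listed for the tagged arm alone, in hg19 positions. No replicate spread can be given, no libraries were compared, and every value below is a description of 1 list.

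The list held 315787 peaks, 315489 of them on the 22 autosomes. A stretch was the distance from the end of a peak to the start of the next, if it was at least 400 kb. There were 82 such stretches on 21 autosomes, with 0 on chromosome 13. The longest of each of the 21 chromosomes was set aside. Of these 21, 18 were at least 3 Mb long, up to 21.05 Mb. Another 22 were set aside because they overlap a nearly empty interval of the short arm of chromosome 3, and 1 because it overlaps an interval of the short arm of chromosome 9. The remaining 38 stretches lay on 13 autosomes. Their edges, up to 500 kb to either side, held 3087 peaks, or 0.978% of the autosomal peaks. Both the stretches and the edge peaks were chosen by peak positions, so the lengths and densities describe the choice. Heights and backgrounds were not used by the rule but come from the same list, and no test was made of them.

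Long stretches without mapped signal are a known feature of the human reference genome. Around centromeres and in segmental duplications, where near-identical copies lie close together, short reads often cannot be placed at a single position, and the hg19 assembly itself has gaps there. Deletions and gene-poor chromatin can also leave a stretch without peaks. Reads from copies missing from the assembly can pile up on the copies that are present, in a pulldown and in its control alike, which is why the background beneath each peak is given next to its height. In these data such causes cannot be told apart, as mappability, copy number and hg19 gap positions were not used here.

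The 38 stretches added up to 28.6 Mb. Their median length was 573 kb, with 20 under 600 kb, 12 from 600 kb to under 1 Mb and 6 of at least 1 Mb. Chromosome 9 had the most, 8 stretches with a summed length of 9.64 Mb, or 33.7% of the total. Chromosomes 1, 2 and 10 had 5 each, chromosomes 5 and 15 had 3 each, and chromosomes 7 and 16 had 2 each. Chromosomes 6, 8, 11, 14 and 21 had 1 each. The longest was chr9:39058125-41987599 at 2.93 Mb, followed by chr9:45354260-47208034 at 1.85 Mb, chr5:68819978-70307360 at 1.49 Mb, chr5:126761164-128207805 at 1.45 Mb, chr9:41987664-43396464 at 1.41 Mb and chr2:90485466-91664716 at 1.18 Mb. Just inside the limit of 400 kb were chr10:46274839-46691457 with 417 kb, chr16:16300822-16719143 with 418 kb and chr14:19826170-20245506 with 419 kb. Just outside it were chr15:28708349-29106608 with 398 kb, chr15:20878210-21270406 with 392 kb and chr11:89267041-89655563 with 389 kb.

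Many stretches were neighbours. Another of the 38 lay within 1 Mb of 16 of them and within 3 Mb of 25. Most were also near the longest stretch of their chromosome, 21 within 5 Mb and 26 within 10 Mb, while 12 were farther away. On chromosome 9 a single peak of 12 reads, 64 bp wide, was all that parted the longest stretch from the next, and a second peak of 12 reads, 63 bp wide, was all that followed before the third. The run from 39058125 to 44180117, joined over gaps of at least 100 kb, was 5.12 Mb long and held 3 peaks. Stretches of at least 400 kb, dropped ones included, were parted by under 100 kb at 9 such islands, and 4 of the 9 held raised peaks. On chromosome 1 the 13.9 kb from 144005400 to 144019347 held 23 peaks of 13 to 29 reads, 14 of them above the background that most peaks share. On chromosome 2 the 57.8 kb from 89832567 to 89890368 held 87 peaks of 12 to 32 reads, 30 of them above it. On chromosome 9 the 13.2 kb from 68989461 to 69002626 held 14 peaks of 13 to 33 reads, 11 of them above it. Others were thin. On chromosome 5 the 58.0 kb from 46309617 to 46367598 held 2 peaks, or 34.5 per Mb. It was the only 1 of the 9 islands below the autosomal mean of 112.9 per Mb. On chromosome 2 the 1.74 kb from 87591468 to 87593203 held 2 peaks, or 1152 per Mb. The 17.1 kb from 90468391 to 90485465 held 6, or 351 per Mb. These 3 islands had 0 raised peaks.

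**Figure D1:**
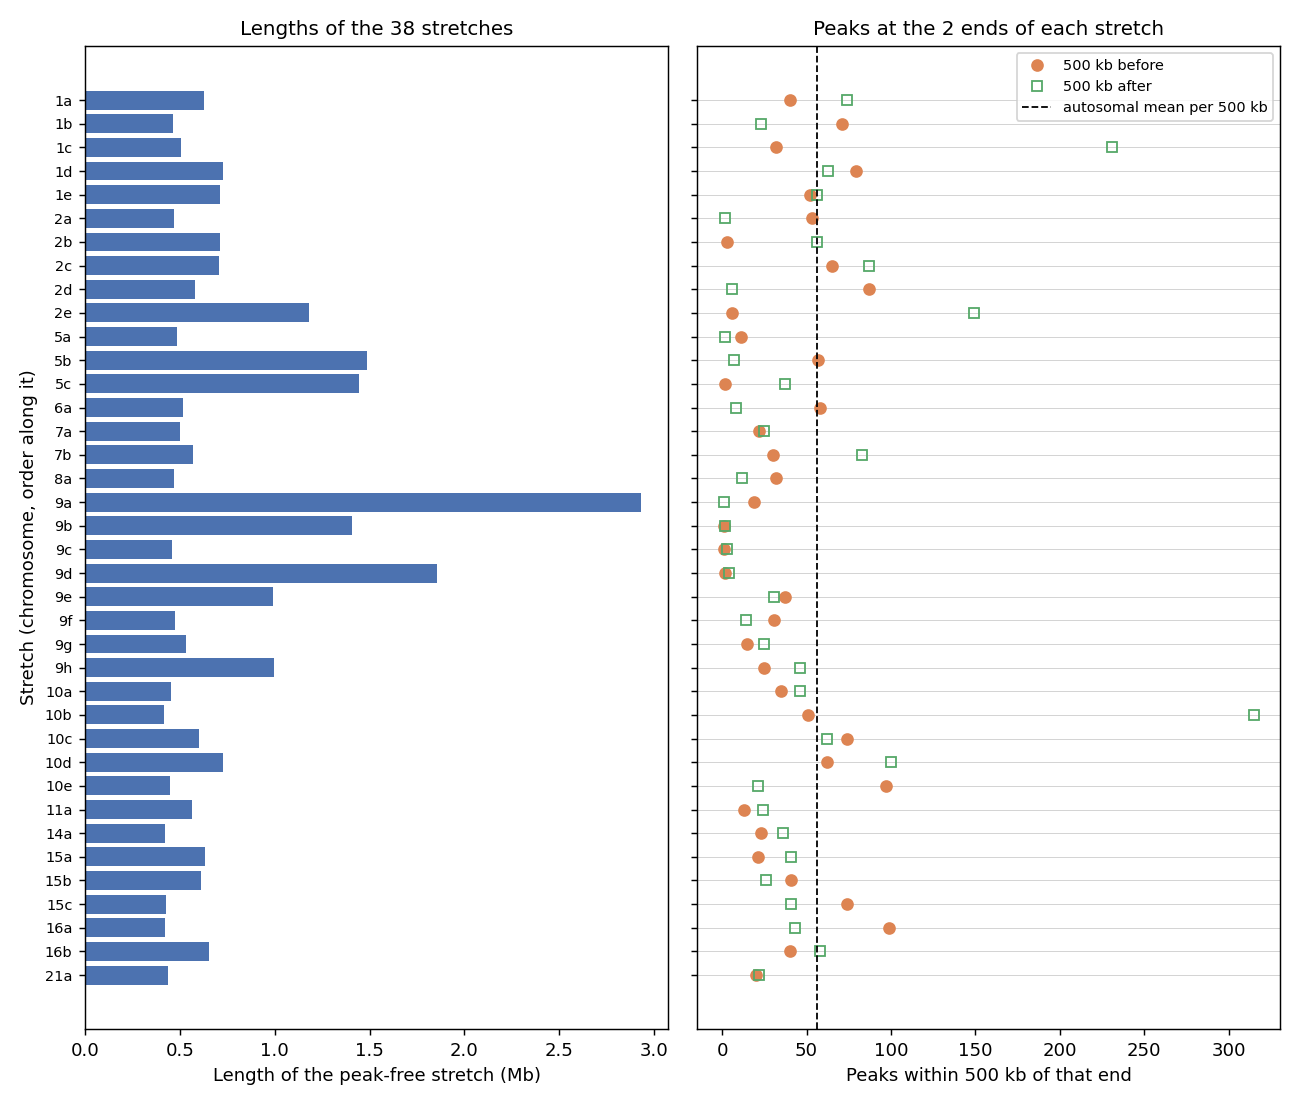
Left, the length of each of the 38 stretches in Mb, named by chromosome and by a letter for its order along that chromosome. Right, the number of peaks within 500 kb before and after each stretch, with the autosomal mean per 500 kb, stretches included, as a dashed line. Counts at 9a to 9d are 19 or fewer on each side, and 1c and 10b have 231 and 315 peaks after them.

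Edge density as a whole was close to the autosomal mean, and single edges were far from it. With all long stretches taken out of the windows, the edges had 113.0 peaks per Mb over 27.3 Mb, beside 119.5 per Mb for the rest of the autosomes measured the same way and 112.9 per Mb over the autosomal spans with the stretches included. For the 36 stretches with at least 100 kb of window, density ran from 8.00 to 490 peaks per Mb, with a median of 103.7. Of these, 21 were below 112.9, the autosomal mean with the stretches included. With all long stretches left out, as in the windows, the autosomal mean was 119.4 per Mb, so at least 21 lay below that. The densest edges were those of chr1:144019348-144526668 with 490 per Mb, chr10:46274839-46691457 with 366 and chr2:90485466-91664716 with 300 per Mb. The sparsest were those of chr9:43396528-43856063 with 8.00 per Mb, chr9:45354260-47208034 with 11.9 and chr5:45826395-46309616 with 23.3 per Mb.

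The sides of a stretch often differed. There were 26 stretches with at least 50 kb of window on each side. Set against the autosomal mean with stretches included, 112.9 per Mb, 12 had both sides below, 4 both above and 10 one of each. The sides themselves leave the stretches out. Against the like-measured 119.4 per Mb fewer would be mixed, as chr5:68819978-70307360 with 114 and 14 per Mb would have both sides below. The denser side had a median of 1.83 times the density of the sparser, and 11 of the 26 differed at least 2 times, 4 of them at least 5 times. At chr10:46274839-46691457 there were 51 peaks in the 500 kb before and 315 in the 500 kb after. At chr10:51040518-51488222 the order was the other way round, with 97 before and 21 after. On the short arm of chromosome 16, 40 peaks lay before and 58 after chr16:18165987-18818291, while 99 lay before and 43 after chr16:16300822-16719143.

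Tall peaks were more frequent at the edges. A summit pileup, the number of reads stacked at the peak's highest point, of at least 20 reads was reached by 463 of the 3087 edge peaks (15%, 95% interval 13.8 to 16.3), beside 2.62% of all autosomal peaks and 2.5% of those away from the edges. The median pileup was 15 reads at the edges and 14 elsewhere, and the 95th percentile was 28 and 18 reads. Most edge peaks were still low, as 61.2% had 12 to 15 reads, beside 79.0% elsewhere, and 12 was the lowest value of the list. A q of at most 0.01, as the authors' peak caller gave it, was held by 35.5% (33.8 to 37.2) of edge peaks beside 20.7% of all autosomal peaks. Intervals are exact Clopper-Pearson intervals over peaks, cover counting error only, and take neighbouring peaks as independent, which they need not be.

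The local background was raised at the edges too. Away from such places nearly all peaks shared one background of 4.29 reads, the lowest value found, and a higher value is read here as local control coverage above it, on the assumption that the background came from the control. At the edges 617 peaks (19.99%, 18.6 to 21.4) lay above the shared background, beside 4.16% of all autosomal peaks and 4.003% (3.93 to 4.07) of those elsewhere. A background of at least 20 reads was found under 9 edge peaks (0.292%, 0.133 to 0.553), beside 0.0263% of all autosomal peaks. Height and background went together, yet the edges differed at matched height as well. Among peaks of 16 to 17 reads 21.2% (17.6 to 25.03) of edge peaks were above the shared background, beside 5.65% (5.44 to 5.86) elsewhere. Among those of 25 to 39 reads the shares were 85.4% (79.2 to 90.3) and 44.9% (42.6 to 47.3). Only at 12 to 13 reads were the 2 intervals overlapping, with 2.00% (1.14 to 3.22) and 1.71% (1.64 to 1.79). Much of this rested on the 5 stretches richest in raised peaks, named below. Without them the shares were 12.3% (8.90 to 16.4) at 16 to 17 reads and 61.7% (46.4 to 75.5) at 25 to 39 reads. The interval at 25 to 39 reads then overlapped that of peaks elsewhere. So did those at 12 to 13, 14 to 15, 18 to 19 and 20 to 24 reads.

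**Figure D2:**
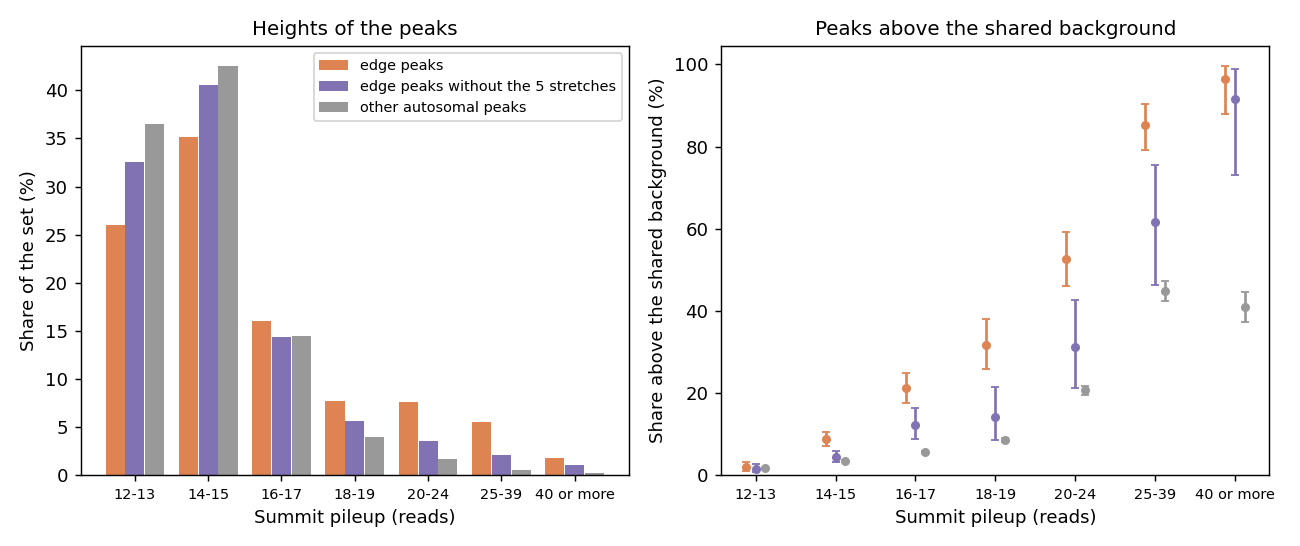
Left, the share of peaks in each class of summit pileup for edge peaks, for edge peaks without the 5 stretches richest in raised backgrounds, and for other autosomal peaks. Right, the share of each class above the shared background, with exact 95% intervals as bars. In the class of 25 to 39 reads the shares are 85.4%, 61.7% and 44.9%.

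Width grew with height, and among low peaks the edges had the same widths as the rest. Edge peaks had a median width of 113 bp beside 99 bp elsewhere. Among peaks at the shared background the medians were 75 bp and 74 bp at 12 to 13 reads, 101 bp and 102 bp at 14 to 15 reads, and 139 bp and 138 bp at 16 to 17 reads. Tall peaks showed no consistent difference. At 20 to 24 reads edge peaks had a median of 227 bp (190 to 267, n = 111) beside 195 bp (194 to 198, n = 4218), with overlapping intervals. Without the 5 stretches richest in raised peaks, named below, the edge median in this class was 182 bp (169 to 228). At 25 to 39 reads all edge peaks had a median of 195 bp (170 to 218, n = 25) beside 244 bp (238 to 250, n = 955).

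A few stretches carried most of the tall and raised peaks. The 5 with the most edge peaks above the shared background were chr1:144019348-144526668 with 150 of 263, chr10:46274839-46691457 with 127 of 366, chr2:90485466-91664716 with 121 of 155, chr1:143542189-144005399 with 40 of 94 and chr9:67338834-68329165 with 36 of 68. Peaks within 500 kb of these 5 alone made up 67.4% of the tall and 70.2% of the raised edge peaks. Without the 5, a set left out after the values were seen, the remaining 2210 edge peaks had 6.83% (5.82 to 7.97) of at least 20 reads and 8.33% (7.21 to 9.56) above the shared background. Both shares were still above those of the peaks elsewhere. The density of these edges was 90.9 peaks per Mb. With peaks within 1000 bp of each other merged and the tallest summit kept, 8.67% (7.43 to 10.1) of 1833 edge peaks were tall and 6.93% (5.81 to 8.19) raised, beside 2.35% and 3.17% elsewhere.

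**Figure D3:**
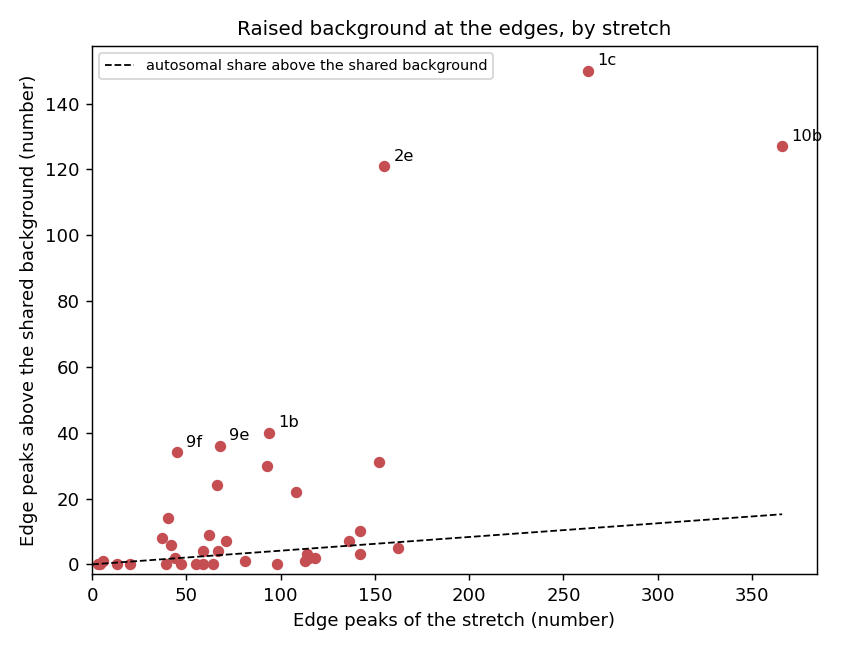
Each point is 1 of the 38 stretches, with its number of edge peaks on the x axis and the number of those above the shared background on the y axis. The dashed line is the autosomal share of 4.16%. Stretches 1c, 10b and 2e stand at 121 to 150 such peaks, while 10 stretches have 0.

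The shares differed with the distance to the longest stretch of the chromosome. Edge peaks of the 21 stretches within 5 Mb of their chromosome's longest stretch, each peak counted at its nearest stretch, had at least 20 reads in 409 of 1608 cases (25.4%, 23.3 to 27.6), and 34.5% (32.1 to 36.8) lay above the shared background. For the 5 stretches at 5 to 10 Mb the shares were 6.24% (4.25 to 8.78) and 7.07% (4.94 to 9.74) of 481 peaks. For the 12 stretches over 10 Mb away they were 2.40% (1.55 to 3.56) and 2.91% (1.95 to 4.15) of 998 peaks, close to the autosomal 2.62% and 4.16%. Edges of the longest stretches themselves, which are not among the 38, had 31.9% (29.9 to 34.0) and 37.0% (35.0 to 39.2) of 2046 peaks. All of the 5 stretches richest in raised peaks were within 5 Mb. Without them the near class had 11.4% (9.18 to 14) tall and 14.8% (12.3 to 17.6) raised of 709 peaks, and 6 of the 21 near stretches had 0 raised edge peaks. On chromosomes 14 and 15 the longest stretch is under 1 Mb and lies far along the chromosome, so their 4 stretches counted as distant. They had 5.61% (3.30 to 8.83) tall and 6.27% (3.82 to 9.62) raised of 303 peaks, and the other 8 distant stretches 1.01% (0.406 to 2.06) and 1.44% (0.692 to 2.63) of 695.

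Along the distance from a stretch, density did not rise evenly. It was 151 peaks per Mb within 50 kb, which includes the 74 peaks that border a stretch and are there by the rule. It was 92.2 at 50 to 100 kb, 95.8 at 100 to 200 kb, 68.1 at 200 to 300 kb, 127 at 300 to 400 kb and 154 per Mb at 400 to 500 kb. Beyond the edge it was 155 per Mb at 500 to 1000 kb and 105 per Mb at 1000 to 1500 kb. The share above the shared background was 17.1% (15.8 to 18.6) at 500 to 1000 kb and 3.11% (2.32 to 4.08) at 1000 to 1500 kb. Of the 512 raised peaks at 500 to 1000 kb, 332 lay at 2 places, 182 before chr6:58046992-58563761 and 150 after chr1:144019348-144526668, and without these places the share was 7.45% (6.43 to 8.57). The raised share followed no even course either, with 24.7% at 100 to 200 kb, 7.18% at 200 to 300 kb and 11.2% at 3000 to 5000 kb. Without the 5 stretches it was 15.5% (12.1 to 19.5) within 50 kb, 13.04% (8.98 to 18.1) at 50 to 100 kb, 3.08% (1.42 to 5.77) at 200 to 300 kb and 8.96% (6.61 to 11.8) at 400 to 500 kb.

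**Figure D4:**
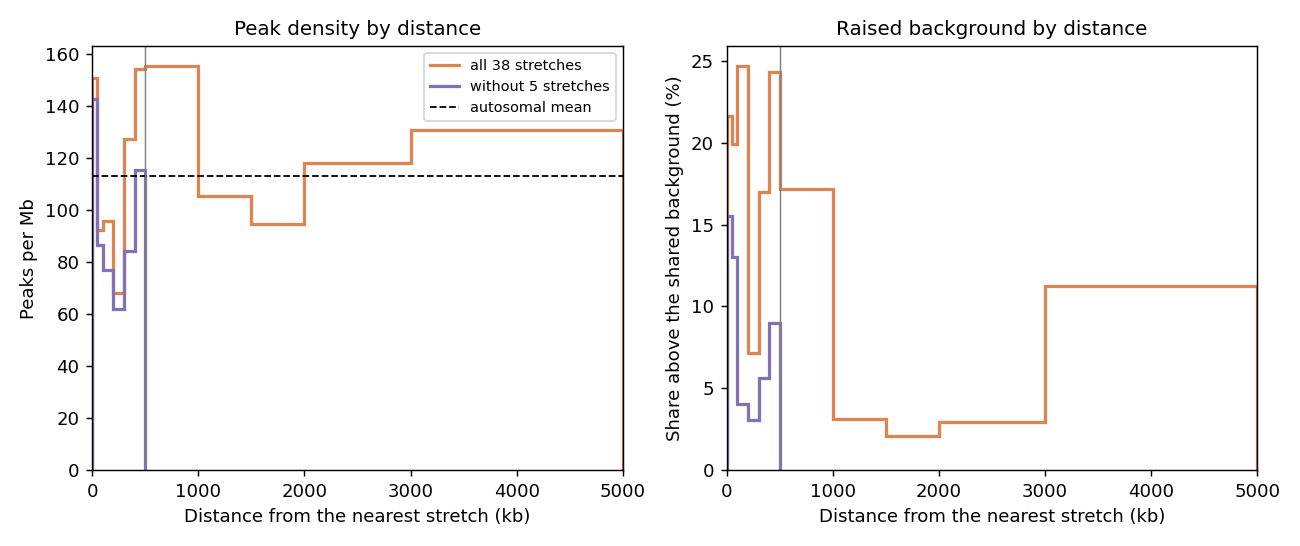
Peaks per Mb (left) and the share of peaks above the shared background (right) by distance in kb from the nearest stretch, for all 38 stretches and, up to 500 kb, without the 5 richest in raised backgrounds. The grey line marks the 500 kb limit and the dashed line the autosomal mean of 112.9 peaks per Mb, stretches included. For all 38 the raised share is 17.1% at 500 to 1000 kb and 3.11% at 1000 to 1500 kb.

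The peaks that border the stretches had the median height of all autosomal peaks. The 76 ends were formed by 74 peaks, as 2 peaks border a stretch on each side. Their median pileup was 14 reads, their highest 32 and their median width 84.5 bp, beside 14 reads and 99 bp over all autosomal peaks. At least 20 reads were reached by 5 of 74 (6.76%, 2.23 to 15.1), and 6 (8.11%, 3.03 to 16.8) had a raised background, beside the autosomal 2.62% and 4.16%.

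The 4 strongest edge peaks by q lay over a high background. On chromosome 6, the peaks chr6:58778114-58779359, chr6:58776830-58777807 and chr6:58776484-58776730 had 3617, 3399 and 2005 reads over backgrounds of 1208, 850 and 313 reads. Their fold enrichments (summit pileup plus 1 over background plus 1, the peak caller's own values) were 2.99, 3.99 and 6.40. All 3 lay 213 to 215 kb beyond chr6:58046992-58563761, next to the longest stretch of that chromosome. The fourth by q was chr9:66971131-66971371 with 227 reads over 39.02. By fold, the leading edge peaks had the shared background. The first was chr7:75405621-75406203 with 59 reads, a fold of 11.3 and a width of 583 bp, 353 kb after chr7:74484464-75052952. Next came chr10:50857430-50857718 with 41 reads and a fold of 7.94, chr1:12708259-12708561 with 37 reads and 7.19, and chr2:86645047-86645434 with 36 reads and 6.999. The peaks chr7:75405621-75406203 and chr10:50857430-50857718 were also among the 10 strongest by q.

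Edges of 8 stretches had 0 tall and 0 raised peaks. They were the 3 on chromosome 5, chr7:62827977-63330437, chr16:18165987-18818291, chr2:87593204-88304055 and a pair on chromosome 9. Of the 3 on chromosome 5, chr5:126761164-128207805 lay farthest from the longest stretch, at 77.4 Mb. Its 39 edge peaks had 12 to 19 reads with a median of 14. A count of 0 among 39 allows a share of up to 7.69% (3 counts of the total; the exact upper bound is 9.03%), so the autosomal shares of 2.62% and 4.16% could not have been told from 0 here.

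That stretch belonged to a longer sparse run with abrupt ends. From 125987742 to 128207805, 2.22 Mb of chromosome 5 held 3 peaks, or 1.35 per Mb, beside 98.0 per Mb for the chromosome. The 3 were chr5:126255491-126255557 with 12 reads, chr5:126608797-126608858 with 14 reads and chr5:126761072-126761163 with 13 reads, all at the shared background. The 500 kb before the run held 50 peaks and the 500 kb after it 37, or 100 and 74 per Mb. The other runs of over 2 Mb were on chromosome 9 and had sparse flanks, with 19 and 3 peaks around the 5.12 Mb run and 5 and 4 around the 2.40 Mb run from 44805916. At chr5:68819978-70307360, of similar length, the 500 kb before held 57 peaks and the 500 kb after 7.

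**Figure D5:**
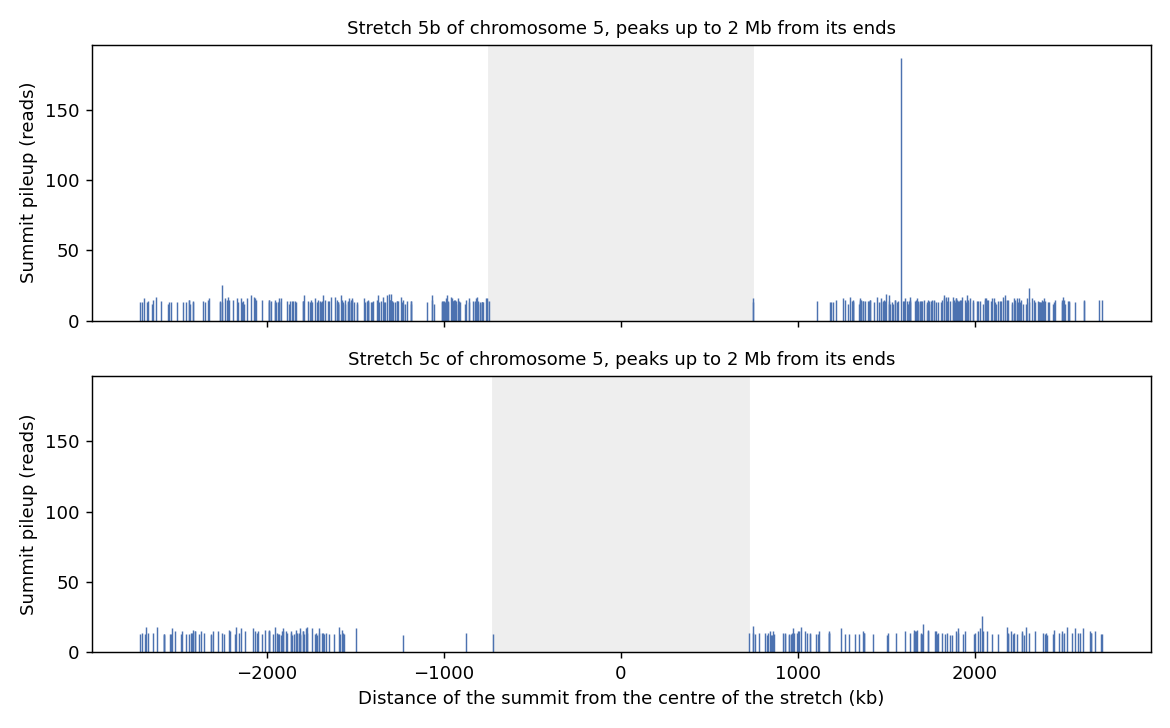
Summit pileup in reads of every peak up to 2 Mb from the ends of chr5:68819978-70307360 (5b, top) and chr5:126761164-128207805 (5c, bottom), by distance of the summit from the stretch's centre in kb. The stretch is shaded and each line is 1 peak. Stretch 5c has 2 further lone peaks before it, and its 2.22 Mb run ends in regular peaks on both sides.

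The genes named from here on were picked after the stretches were known, are placed by general knowledge of the chromosome bands, and were not checked against an hg19 annotation. Band 5q23, around the 2.22 Mb run, carries MEGF10, an engulfment receptor, PRRC1, a Golgi-associated protein, CTXN3, a small membrane protein of brain and kidney, SLC12A2, the sodium-potassium-chloride cotransporter NKCC1, and FBN2, an extracellular microfibril protein mutated in congenital contractural arachnodactyly. In RefSeq's order (GRCh38.p14, used for names and neighbours only), with LOC entries left out, the genes run from MARCHF3 through C5orf63, MEGF10, PRRC1, CTXN3, CCDC192, SLC12A2 and FBN2 to SLC27A6. The promoters of 3 of them are shown because they are regulatory sequence that, so placed, falls in a stretch with 0 listed peaks. Each is 300 bases from RefSeq (GRCh38.p14), 5′ to 3′ on the gene's strand, 250 bases before to 50 after the start, and capitals mark GGAA, the core of ETS sites, or TTCC, its reverse complement.
PRRC1: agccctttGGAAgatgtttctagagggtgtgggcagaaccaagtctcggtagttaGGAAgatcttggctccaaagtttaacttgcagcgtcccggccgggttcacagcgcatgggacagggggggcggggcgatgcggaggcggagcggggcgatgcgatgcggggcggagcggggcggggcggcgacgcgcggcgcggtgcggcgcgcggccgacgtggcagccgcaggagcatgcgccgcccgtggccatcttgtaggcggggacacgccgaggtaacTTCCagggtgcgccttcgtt
SLC12A2: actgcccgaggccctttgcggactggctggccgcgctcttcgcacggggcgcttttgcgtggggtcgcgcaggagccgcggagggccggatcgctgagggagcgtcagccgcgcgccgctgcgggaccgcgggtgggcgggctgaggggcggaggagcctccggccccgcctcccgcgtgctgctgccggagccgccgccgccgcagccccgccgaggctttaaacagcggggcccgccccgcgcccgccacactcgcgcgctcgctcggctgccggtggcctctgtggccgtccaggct
FBN2: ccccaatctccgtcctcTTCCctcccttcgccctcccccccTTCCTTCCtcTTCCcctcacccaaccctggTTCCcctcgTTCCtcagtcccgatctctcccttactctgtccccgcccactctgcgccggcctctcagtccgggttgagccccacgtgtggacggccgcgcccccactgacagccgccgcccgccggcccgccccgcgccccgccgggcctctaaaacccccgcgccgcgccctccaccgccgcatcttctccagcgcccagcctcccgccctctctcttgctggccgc
The core, searched on both strands, occurred 3 times in PRRC1, 0 times in SLC12A2 and 6 times in FBN2, and 95.5% of 35116 RefSeq promoters of the same length held at least 1. The longer CCGGAAG, which contains the core, occurred 0 times in the 3 and in 10.3% of all. A match is no evidence of binding, and its lack says only that these letters are not in the window.

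Many of the other stretches fall in bands known for gene families in near-identical copies. Their raised counts are to be read beside the autosomal 4.16%, and several are at or below that share. Band 1p36 around chr1:13179245-13804831 has the PRAMEF cluster, cancer-testis antigen genes, and the edges there held 114 peaks, 3 of them raised. Band 1q21 around the 4 further stretches of chromosome 1 has NBPF and NOTCH2NL copies, and the raised counts ran from 10 of 142 to 150 of 263. Band 5q13 has SMN1 and SMN2, the survival motor neuron genes, with NAIP, an inhibitor of apoptosis, and the 64 edge peaks of chr5:68819978-70307360 held 0 raised ones. Band 7q11 beside the Williams-Beuren region has copies of NCF1, an NADPH oxidase subunit, and GTF2IRD2, and 1 of 113 edge peaks of chr7:74484464-75052952 was raised.

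In further bands the raised shares lay on both sides of the autosomal 4.16%, though several counts are too small to place them. For 2 of 44, 4 of 59 and 2 of 118 the 95% intervals were 0.555 to 15.5%, 1.88 to 16.5% and 0.206 to 5.99%. Band 8p23 has the beta-defensin genes, antimicrobial peptides, and chr8:7247740-7715413 had 44 edge peaks with 2 raised. Band 10p12 has MRC1, the macrophage mannose receptor, and chr10:17771819-18222295 had 81 edge peaks with 1 raised. Band 10q11 has AGAP and ANXA8 copies, and the edges of its 4 stretches differed, with raised counts of 127 of 366, 7 of 136, 5 of 162 and 2 of 118. The short arm of chromosome 16 has NOMO and NPIP copies, and the edges of its stretches had 3 raised of 142 and 0 of 98. Bands 14q11, 15q11 and 21q11 have POTE-family genes, and chr14:19826170-20245506, chr15:21270481-21903916 and chr21:14764410-15202488 had 4 of 59, 9 of 62 and 6 of 42 raised edge peaks.

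The immunoglobulin kappa locus, which cells of the B lineage rearrange, maps to 2p11. This is the band of chr2:89129440-89832566 (703 kb) and chr2:89890369-90468390 (578 kb), and the kappa variable genes lie in 2 copies. Before the first stretch the 500 kb held 65 peaks, 1 of them raised and 4 with at least 20 reads. Between them lay the island of 87 peaks, 30 raised and 11 tall, and after the second the 17.1 kb before the next stretch held 6 peaks, 0 raised and 2 tall. Over all autosomal peaks 4.16% were raised and 2.62% tall, and the last count is too small to read a share from. Kappa rearrangement in Reh was not examined here.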

How the data were processed

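The data are 1 pooled anti-HA pulldown of Reh cells with tagged ETV6. Only this sample has a list, and the untagged pool is not analysed here. The submitters' processing notes list build hg19, MACS2 2.1.1.20160309 and Bowtie2 2.2.3, with roles and settings not given in the sources used here. The authors deposited a narrowPeak list with a fold (ratio), −log10 p, −log10 q and summit of each peak. The deposited score column repeats q and was not used, and the other deposited columns are positions. Pileup and background were solved from the deposited fold, (pileup + 1)/(background + 1), and the Poisson upper tail, with the background assumed to come from the control. The pileup was whole within 0.05 for all but 1 of 315787 peaks. A background over 0.005 above the shared value counts as raised. Solving and stretch search were tested on simulated data.

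Peaks of at least 20 reads are called tall. A stretch overlapping an excluded interval was dropped, and windows leave out the bases of every stretch of at least 400 kb, dropped ones included. Counts of a single stretch include peaks also near another. Shares have exact Clopper-Pearson intervals, and those of median widths are exact binomial order-statistic intervals, all at 95%. Members and lists were chosen with earlier results of these data known. Named by rule were the 10 longest stretches, those nearest the limit, the 10 densest and sparsest edges and the 10 strongest edge peaks by q and by fold, of which a part is given. The chromosome with the most stretches was also named. The rule's gene lists need an hg19 annotation, so 0 were tested. The 100 kb join, the 5 and 10 Mb classes, the islands, and the classes without the 5 stretches, chromosomes 14 and 15 or 2 places were set after the values were seen. Scripts ran in Python 3.11.15 (scipy 1.17.1, pandas 2.3.3, numpy 2.4.6, matplotlib 3.10.9).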

Additional observations from a re-analysis of the deposited data

How the results depend on the processing

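Of 73 values recomputed under 11 settings, 40 were within 1.5 times (counts, density) or within the interval of the reported value, and 33 moved. Limits of 300 and 600 kb gave 62 and 18 stretches of median 455 and 727 kb, 4786 and 1451 edge peaks, 15.1% and 17.5% raised and widths of 109 and 108 bp, with 11.4% tall at 300 kb. Windows of 250 and 1000 kb held 1449 and 6072 peaks, 16.6% and 13.4% tall, and a width of 108 bp at 250 kb. With q of at most 0.05 the width was 116 bp. Keeping each chromosome's longest stretch gave 59 stretches of median 711 kb, 5133 peaks, 21.7% tall and 26.8% raised. Without stretches near a background of at least 20 reads the shares were 11.02% and 15.5%. Merging within 1000 bp left 1833 peaks, 67.1 per Mb, 8.67% tall, 6.93% raised and 109 bp. Without chromosome 10 16.6% were tall. Without the 5 stretches richest in raised peaks, a choice made after seeing the data, 6.83% were tall and 8.33% raised, at 103 bp.

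Counts and numbers of stretches moved by construction. The causes of the other shifts were not tested. The shares of tall and raised edge peaks were above the autosomal 2.62% and 4.16% in all 11 settings. These settings share many members, and none leaves out the stretches within 5 Mb of the longest, where most tall and raised edge peaks lay. For the 12 stretches over 10 Mb away the shares were 2.40% and 2.91%. Merged peaks are to be set beside 2.35% and 3.17% elsewhere. For q of at most 0.05 the matching autosomal shares are not given here. No listed peak had under 12 reads, and over a raised background more reads are needed for the same p. A stretch therefore shows where no peak was listed, not where ETV6 was absent. No paired analysis was possible because there is 1 pooled list.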
